A study of Sus scrofa with 12 samples.

Results

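The 10 genes described here encode regulators of the oxidative programme of muscle: the coactivators PPARGC1A and PPARGC1B, the nuclear receptors PPARA, PPARD, ESRRA and ESRRG, the transcription factors of mitochondrial biogenesis NRF1 and TFAM, and the energy sensors SIRT1 and PRKAA2. They were taken by symbol from the gene tables of the series, and all 10 had a row among the 25880 genes listed. RNA-seq libraries of the longissimus dorsi, the loin muscle, were available for 12 Iberian pigs, 1 library per pig. All were castrated males of a single closed commercial population, fattened outdoors on acorns and grass, and full siblings had been avoided. The 6 pigs of the High MB group and the 6 of the Low MB group had been chosen for extreme estimated breeding values for myoglobin content, and no treatment separated the groups. Muscle myoglobin, in mg/g, ran from 2.376 to 2.559 in High MB and from 1.226 to 1.58 in Low MB, without overlap.

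PGC-1 alpha, the product of PPARGC1A, does not bind DNA itself. It is recruited by nuclear receptors such as the PPAR and ERR proteins and by NRF1, and with them switches on genes for fatty acid oxidation and the respiratory chain, while TFAM carries the programme into the mitochondrial genome. AMPK, whose muscle catalytic subunit is the product of PRKAA2, and the deacetylase SIRT1 both act on PGC-1 alpha when energy is short, and slow, myoglobin-rich fibres are the classical site where this programme runs high. The question put to the counts was whether these regulators differed at the RNA level between muscles that differ in myoglobin.

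The counts in genes summed to between 38914271 and 91318334 per pig. The libraries formed a pair of depth classes, 5 deep and 7 standard, the latter with at most 40001432, and pigs of both groups were in each. The deep class held 2 High MB and 3 Low MB pigs, and the standard class 4 and 3. Levels are given as CPM, counts scaled to a common library size with TMM factors, and the difference between groups as a log2 fold change, High MB minus Low MB, from edgeR's quasi-likelihood test. All 10 regulators passed the filter on low counts, with between 126 and 32540 counts in a pig. A gene was called when its Benjamini-Hochberg adjusted p over the 13373 genes tested was under 0.10 and its absolute log2 fold change over 0.58. None of the 10 was called, and edgeR called none of the genes tested either (0.0%). At an unadjusted p under 0.05 there were 1132 genes (8.46% of those tested), 713 of them higher in High MB (5.33%) and 419 lower (3.13%), and no regulator was among them. DESeq2 called 29 genes, none of them a regulator. The muscle markers ACTA1, CKM, DES, TNNT3 and MYBPC2, the 5 of 7 defining genes with a row, were present in all pigs, with a summed level of 40300 to 92800 CPM in High MB and 69600 to 122000 CPM in Low MB. Because the RNA is from whole muscle, fewer cells of a type and less RNA per cell cannot be told apart.

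**Figure D1:**
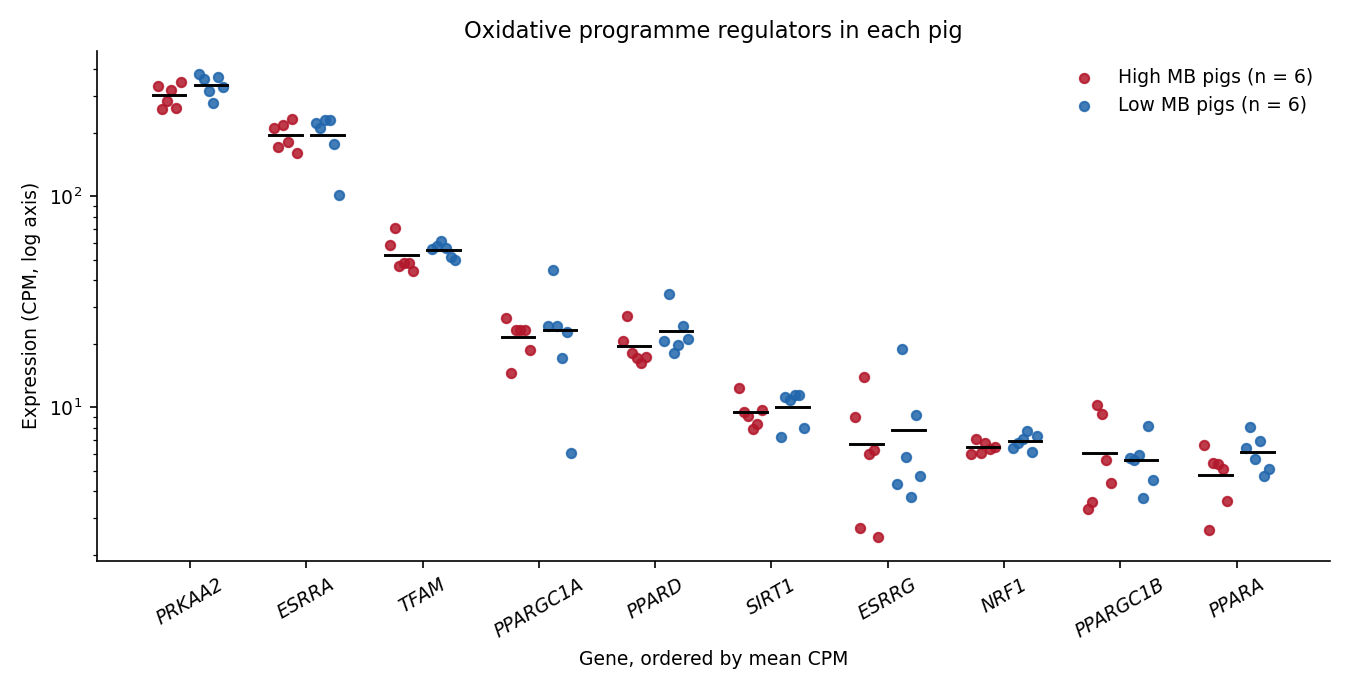
Expression of the 10 regulators in each pig, in CPM on a log axis, with genes ordered by mean CPM; each point is a pig, red for High MB (n = 6) and blue for Low MB (n = 6), and the bar is the group mean. The groups overlapped for every gene, and a single Low MB pig lay far below the others for both PPARGC1A (6.09 CPM) and ESRRA (102 CPM).

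PPARGC1A (ENSSSCG00000029275), the coactivator at the centre of the programme, was between 14.6 and 26.4 CPM in the High MB pigs, with a median of 23.2. In the Low MB pigs it was between 6.09 and 44.6 CPM, with a median of 23.6. Both extremes of the 12 pigs therefore lay in the Low MB group: Low MB pig 2 was the highest and Low MB pig 6 the lowest, 7.32-fold apart. The group means were 21.6 ± 4.21 CPM and 23.2 ± 12.6 CPM (SD, n = 6 each). The log2 fold change was -0.10 ± 0.32 (SE, 95% interval -0.79 to 0.58, edgeR adjusted p = 0.949), and the exact two-sided permutation test over all regroupings of the pigs gave p = 0.848. The direction was not stable, since the log2 fold change was 0.20 without Low MB pig 2, 0.01 without High MB pig 2 and 0.27 within the deep libraries alone.

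PPARGC1A lies on chromosome 8 of Sscrofa11.1 (17841844 to 18527953, minus strand) in the RefSeq annotation, with 7 transcript starts. The 250 bases upstream of the start at 17946934 (chr8:17946935-17947184, minus strand) are shown because they hold the letters of a cAMP response element, the site through which CREB switches on PGC-1 alpha in fasting and exercise. The match to TGACGTCA, in capitals, runs from 190 to 183 bases upstream of that start, and no exon of another PPARGC1A model falls in the window.
PPARGC1A: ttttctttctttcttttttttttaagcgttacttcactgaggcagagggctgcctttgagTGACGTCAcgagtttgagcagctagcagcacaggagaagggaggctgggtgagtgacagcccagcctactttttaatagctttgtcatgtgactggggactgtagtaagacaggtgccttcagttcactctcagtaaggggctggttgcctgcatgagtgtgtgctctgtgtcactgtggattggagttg
Of all annotated starts, 1.55% had these 8 letters on either strand within 250 bases upstream (2.31% of genes at 1 start or more), and PPARGC1A was the only regulator of the 10 that did, at 1 of its 7 starts. No transcript start was measured in these libraries, so which start was used in this muscle is not known.

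PPARGC1B (ENSSSCG00000014437), the related coactivator PGC-1 beta, was less abundant. It was between 3.29 and 10.3 CPM in High MB, with a median of 5.01, and between 3.71 and 8.19 CPM in Low MB, with a median of 5.68. Here the High MB pigs held both ends, with 2 of them above and 2 of them below every Low MB pig. High MB minus Low MB gave a log2 fold change of 0.11 ± 0.29 (SE, 95% interval -0.51 to 0.73, edgeR adjusted p = 0.936), the largest positive value of the 10, and it turned to -0.10 without High MB pig 3.

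Among the nuclear receptors, PPARA (ENSSSCG00000000006), the fatty acid sensor that switches on fat oxidation, had the largest difference of the 10 regulators. It was between 2.62 and 6.64 CPM in High MB, with a median of 5.24, and between 4.73 and 8.08 CPM in Low MB, with a median of 6.08. High MB pigs 2 and 6 were below every Low MB pig, and Low MB pigs 2 and 4 above every High MB pig. Its log2 fold change was -0.36 ± 0.21 (SE, 95% interval -0.82 to 0.09, edgeR p = 0.11, adjusted p = 0.647), and the exact permutation test gave p = 0.119. It stayed negative within the deep libraries (-0.23), within the standard ones (-0.47) and with each pig left out in turn (-0.48 to -0.22).

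PPARD (ENSSSCG00000001539), the PPAR most tied to oxidative fibres and endurance, was between 16.3 and 27.2 CPM in High MB, with a median of 17.8, and between 18.1 and 34.3 CPM in Low MB, with a median of 20.8. The highest of each group were High MB pig 2 and Low MB pig 2, and the next pigs were at 20.7 and 24.4 CPM. PPARD had a log2 fold change of -0.24 ± 0.17 (SE, 95% interval -0.60 to 0.12, edgeR adjusted p = 0.699), and without Low MB pig 2 it was -0.08.

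ESRRA (ENSSSCG00000013028), the oestrogen-related receptor through which PGC-1 alpha drives respiratory chain genes, gave nearly the same mean in both groups, 196 ± 29.0 CPM in High MB and 195 ± 50.1 CPM in Low MB (SD, n = 6 each). The High MB pigs were between 161 and 233 CPM. In Low MB the values ran from 102 to 231 CPM with a median of 216, and the lowest belonged to Low MB pig 6, the pig that was also lowest for PPARGC1A. Its log2 fold change was 0.00 ± 0.18 (SE, 95% interval -0.38 to 0.39, edgeR adjusted p = 0.996), and -0.13 without that pig.

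ESRRG (ENSSSCG00000010814), a constitutively active relative found in oxidative muscle, was low and the most uneven of the set. It was between 2.42 and 14 CPM in High MB, with a median of 6.15, and between 3.76 and 19.0 CPM in Low MB, with a median of 5.27. High MB pig 6 and Low MB pig 2 were 7.83-fold apart, and the order of the medians was the opposite of that of the means, 6.74 ± 4.34 and 7.80 ± 5.80 CPM (SD, n = 6 each). The log2 fold change of -0.21 ± 0.47 (SE, 95% interval -1.21 to 0.78, edgeR adjusted p = 0.923) became 0.28 without Low MB pig 2.

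ESRRG spans chromosome 10 from 6710615 to 7371419 on the minus strand, with 17 transcript starts in RefSeq. The 250 bases upstream of the start at 6909282 (chr10:6909283-6909532, minus strand) are shown because CCGGAAG, the core bound by ETS factors such as GABP, a classical regulator of mitochondrial genes, occurs in them 4 times, in capitals, within a tandem repeat.
ESRRG: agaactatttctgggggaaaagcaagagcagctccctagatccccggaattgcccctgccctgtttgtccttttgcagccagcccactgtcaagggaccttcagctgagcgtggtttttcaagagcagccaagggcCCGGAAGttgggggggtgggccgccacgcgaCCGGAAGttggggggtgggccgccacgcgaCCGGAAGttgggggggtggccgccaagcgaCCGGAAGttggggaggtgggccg
At least 1 such match was present upstream of 8.19% of all annotated starts (11.5% of genes), and of no other regulator, whereas in ESRRG it was at 1 of the 17 starts searched. A further 4 patterns matched upstream of none of the 10: the palindromic NRF1 site (6.74% of all genes), the ERR element TNAAGGTCA (1.28%), the direct repeat (DR1) bound by PPAR and RXR pairs (0.0461%) and the MEF2 site (3.64%). A match is only a run of letters, and its absence here says nothing about binding elsewhere in these genes.

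NRF1 (ENSSSCG00000016566), nuclear respiratory factor 1, which switches on nuclear genes for the respiratory chain and TFAM itself, was the steadiest regulator. It was between 5.99 and 7.12 CPM in High MB, with a median of 6.43, and between 6.14 and 7.75 CPM in Low MB, with a median of 6.94. The log2 fold change was -0.10 ± 0.11 (SE, 95% interval -0.33 to 0.14, edgeR adjusted p = 0.841). TFAM (ENSSSCG00000040185), which packages and transcribes mitochondrial DNA, was between 44.2 and 70.6 CPM in High MB, with a median of 48.3, and between 49.8 and 61.2 CPM in Low MB, with a median of 56.7. For TFAM, 4 of the 6 High MB pigs were below every Low MB pig, while High MB pig 2 was above all of them. Its log2 fold change was -0.08 ± 0.12 (SE, 95% interval -0.33 to 0.18, edgeR adjusted p = 0.885).

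SIRT1 (ENSSSCG00000010235), the NAD-dependent deacetylase that activates PGC-1 alpha, was between 7.87 and 12.3 CPM in High MB, with a median of 9.32, and between 7.24 and 11.5 CPM in Low MB, with a median of 11. The ranges overlapped almost fully, although 5 of the 6 High MB pigs were below the Low MB median. The log2 fold change of SIRT1 was -0.08 ± 0.15 (SE, 95% interval -0.41 to 0.25, edgeR adjusted p = 0.908). PRKAA2 (ENSSSCG00000036145), the catalytic alpha 2 subunit of AMPK, was the most abundant of the 10 by CPM, between 260 and 350 CPM in High MB and between 276 and 381 CPM in Low MB. It lay, in 5 of 6 High MB animals, below the Low MB median of 346 CPM, and 3 Low MB pigs were above every High MB pig. The log2 fold change was -0.17 ± 0.12 (SE, 95% interval -0.42 to 0.08, edgeR adjusted p = 0.698), and the exact permutation test gave p = 0.13. In RefSeq, the ends of PRKAA2 and C6H1orf168 share 1423 bases on opposite strands, SIRT1 and HERC4 share 252 and ESRRA and TRMT112 share 53, and the strand setting of the counting was not given in the sources used here, so reads in those stretches are uncertain.

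**Figure D2:**
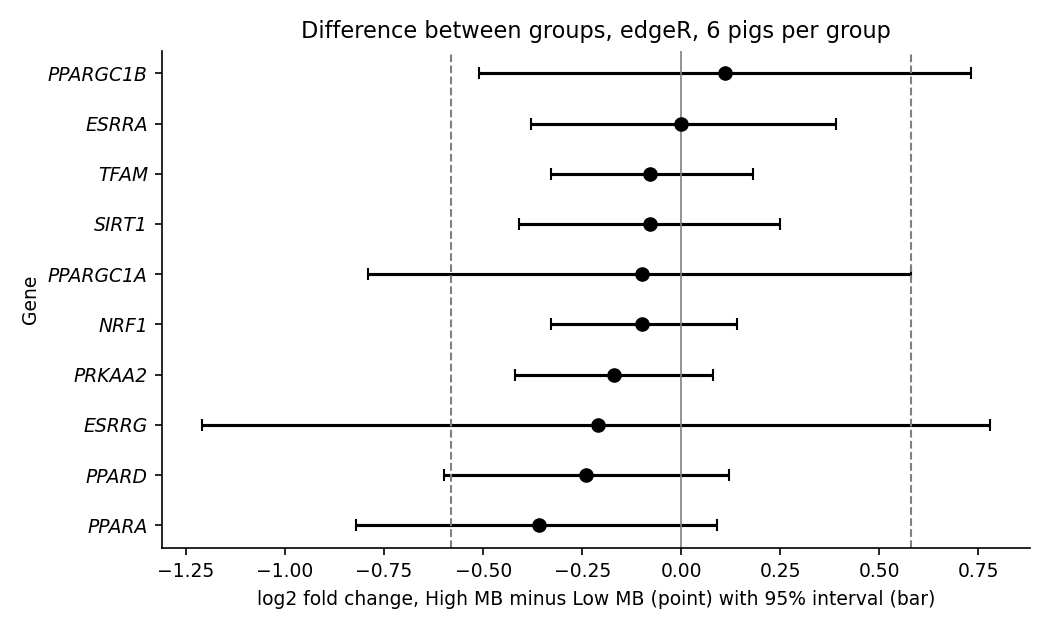
Log2 fold change (High MB minus Low MB, edgeR, 6 pigs per group) of each regulator as a point with its 95% interval as a bar; dashed lines mark 0.58 in either direction, the size required for a call. Every interval includes 0; those of ESRRA, NRF1, TFAM, SIRT1 and PRKAA2 stay inside the dashed lines.

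Over the set, 8 of the 10 log2 fold changes were below 0 and 2 were at or above it, against 53.1% below 0 among all genes tested, and the median was -0.10 against -0.02 for all genes. With a pig left out, between 6 (without Low MB pig 2, median -0.04) and 10 (without High MB pig 3, median -0.11) were below 0, and the median was lowest without High MB pig 1 (-0.17) and without Low MB pig 6 (-0.16). For no regulator were the groups free of overlap (0.426% of all genes tested had none). The intervals show how much the data limit each difference. For ESRRA, NRF1, TFAM, SIRT1 and PRKAA2 they lay within 0.58 in either direction. For the other 5 they reached that size or past it: a High MB level of PPARA as low as 0.567 of the Low MB level, or of ESRRG between 0.432 and 1.72 of it, was inside the interval. A p that misses the threshold does not show that the groups were alike in these 5 genes.

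Compared per kilobase of the longest RefSeq transcript, which need not be the model used in the counting, ESRRA was the highest of the regulators at 85.7 ± 17.1 CPM per kb (SD, n = 12), followed by PRKAA2 at 34.9 ± 4.57 and TFAM at 31.6 ± 4.38. PRKAA2 was above TFAM in 9 of 12 pigs, and the gap between them was within the spread. There was then a gap to PPARD (5.20 ± 1.26), PPARA (3.91 ± 1.05), PPARGC1A (2.36 ± 0.944) and SIRT1 (1.39 ± 0.241), in CPM per kb. NRF1 (0.687 ± 0.0560), PPARGC1B (0.577 ± 0.226) and ESRRG (0.561 ± 0.379) closed the order, and neighbours among these 3 differed by less than their spread, the higher being above the lower in 9 of 12 pigs. With the length of all annotated exons the order was the same, but PPARGC1A was at 1.33 CPM per kb, next to SIRT1 at 1.22, and ESRRG at 0.277. The single PPARA model is only 1.404 kb long, so its level per kilobase may be too high.

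The regulators were unlike in how much pigs of the same group varied. The SD of log2 CPM between pigs within a group was 0.93 for ESRRG, 0.71 for PPARGC1A and 0.56 for PPARGC1B, against a median of 0.33 over all genes. Among the genes of similar level these SDs were at the 98.1, 97.5 and 88.0 percentiles. The spread of ESRRG was present in both groups (0.98 in High MB and 0.87 in Low MB). That of PPARGC1A lay in Low MB (0.95), while its SD of 0.31 in High MB was the median of all genes there. Without Low MB pig 6 the SD of PPARGC1A over both groups was 0.42, still at the 86.5 percentile of genes of similar level. ESRRA (0.36), PPARA (0.40) and PPARD (0.30) were above the median of genes at their level, but each through a single pig: ESRRA was at 0.19 without Low MB pig 6, PPARA at 0.30 without High MB pig 2 and PPARD at 0.22 without Low MB pig 2, all below that median. SIRT1 (0.26), TFAM (0.20) and PRKAA2 (0.18) were below it, although SIRT1 was at the 55.7 percentile without High MB pig 2. Without that pig the median SD of all genes in High MB was 0.24, against 0.31 with all pigs. At the other end NRF1, with an SD of 0.11 (0.10 to 0.12 with a pig left out), was at the 0.2 percentile of the 1855 genes of similar level. Its coefficient of variation was 6.59% in High MB, 8.59% in Low MB and 8.15% over the 12 pigs, where counting error alone would give 5.57%. The values by group and with a pig left out were added after seeing the data.

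**Figure D3:**
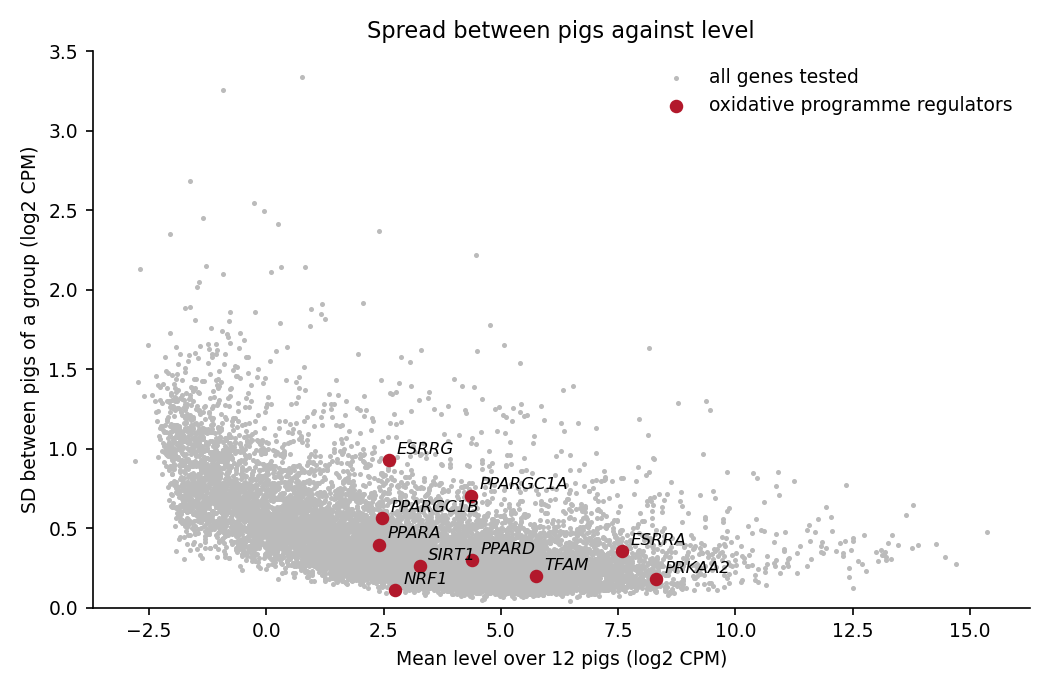
SD of log2 CPM between pigs of the same group against mean log2 CPM over 12 pigs, for the genes tested (grey) and the regulators (red). ESRRG (0.93), PPARGC1A (0.71) and PPARGC1B (0.56) lie above most genes of their level and NRF1 (0.11) at the lower edge. Without Low MB pig 6, PPARGC1A would be at 0.42, the 86.5 percentile of genes of similar level.

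Each regulator was also set against muscle myoglobin within a group. In 20 tests (10 genes in 2 groups, exact permutation of the 720 pairings, n = 6) none passed a Benjamini-Hochberg adjusted p of 0.10, the smallest being 0.864 for Pearson's r and 0.334 for Spearman's rho. PPARD in Low MB gave the strongest relation, with r = -0.75 (exact p = 0.0639) and rho = -0.94 (exact p = 0.0167, adjusted p = 0.334), and r was -0.44 without the 2 pigs farthest from the median of myoglobin. In High MB the same gene gave r = -0.14 (exact p = 0.754). The signs were mixed, with r above 0 for 7 genes in High MB and 5 in Low MB. The highest r was that of ESRRA in Low MB, 0.65 (exact p = 0.146; rho = 0.83, exact p = 0.0583), and 0.95 without the 2 farthest pigs. The 2 groups are separate clusters of myoglobin content, so no pooled value is given.

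Among the 45 pairs of regulators over the 12 pigs, none passed the adjustment for Pearson's r or for Spearman's rho (permutation test with 100000 resamples). For r, 3 pairs had an unadjusted p under 0.05, and the highest r was that of PPARGC1A and ESRRA, with r = 0.80 (permutation p = 0.0117, adjusted p = 0.5265) and rho = 0.53 (permutation p = 0.0792, adjusted p = 0.6377). The r was 0.71 within High MB and 0.82 within Low MB, and 0.96 in the deep but 0.33 in the standard libraries. It rested largely on Low MB pig 6, a deep library: without it, an alternative chosen after seeing the data, r was 0.35 and rho 0.39, and without the 2 pigs farthest from the median r was 0.45. PPARA with ESRRG (r = 0.62, rho = 0.38, permutation p = 0.0312 and 0.228, adjusted 0.576 and 0.7264) and PPARD with TFAM (r = 0.58, rho = 0.58, permutation p = 0.0494 and 0.0527, adjusted 0.576 and 0.6377) were the other 2. By rho, PPARGC1A was closer to PPARA (rho = 0.64, permutation p = 0.03, adjusted p = 0.6377; r = 0.44, permutation p = 0.151) and to ESRRG (rho = 0.63, permutation p = 0.0319, adjusted p = 0.6377; r = 0.57, permutation p = 0.0512) than to ESRRA. Without the 2 farthest pigs these r were 0.67 and 0.72, and they were 0.71 and 0.89 in the standard libraries but 0.09 and 0.15 in the deep ones. PPARA with ESRRG fell to r = 0.22 without the 2 farthest pigs, and PPARD with TFAM was 0.94 in High MB and -0.03 in Low MB, a difference that was not tested.

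**Figure D4:**
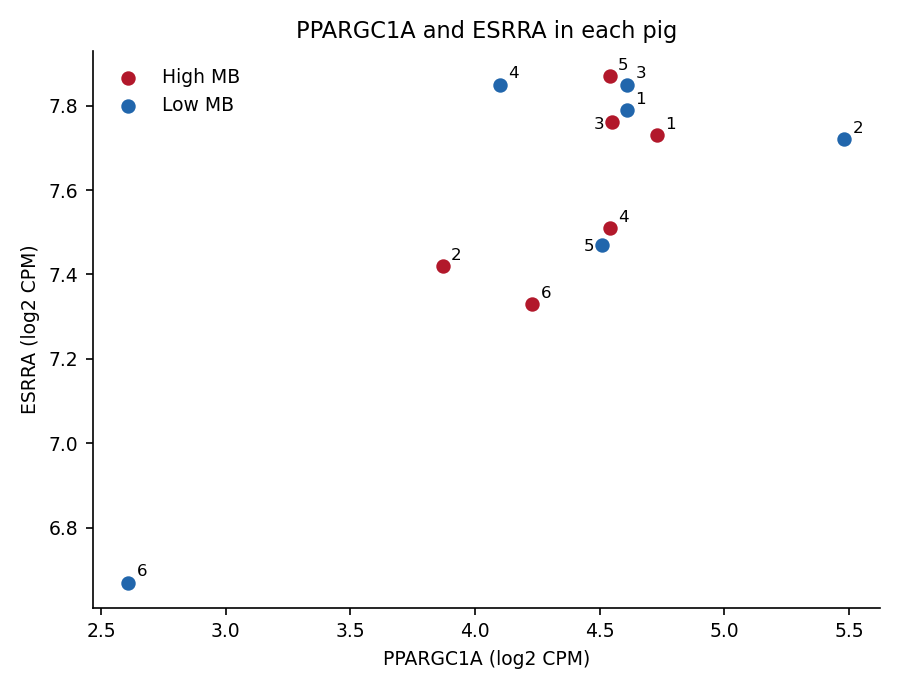
ESRRA against PPARGC1A, both in log2 CPM, with each pig as a point numbered within its group, red for High MB and blue for Low MB. Low MB pig 6 lies alone at the lower left; r over the 12 pigs was 0.80, and 0.35 without that pig.

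Known targets of the programme, a list of 26 genes, included 21 that were tested. Of these, 1 had an unadjusted p under 0.05, against 8.46% of all genes: COX4I1, a subunit of cytochrome c oxidase, at 399 ± 46.4 CPM in High MB and 329 ± 51.0 CPM in Low MB (SD, n = 6 each, log2 fold change 0.28, edgeR adjusted p = 0.578, exact permutation p = 0.0303). The median log2 fold change of the 21 was 0.02, with 12 above and 9 below 0, where 53.1% of all genes were below. These counts were 17 and 4 with upper quartile scaling and without Low MB pig 2 or 4, and 9 and 12 without Low MB pig 5 or 6, where the median was -0.04. With a pig left out, the median was highest without Low MB pig 3, at 0.12, with 15 of the 21 above 0. Upper quartile scaling moved the median of all genes from -0.02 to 0.04 and that of the targets to 0.08, so the 2 medians stayed as far apart as before. The fat-burning switch PDK4 was at a log2 fold change of -0.34, the carnitine transferase CPT1B at 0.07 and citrate synthase, CS, at 0.02 (exact permutation p = 0.628, 0.595 and 0.900). CD36, ATP5F1B and the myoglobin gene MB had no row under their symbols, so the RNA of myoglobin itself is not analysed here.

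Over the 12 pigs, the log2 CPM of the 21 targets had a median r of 0.59 with ESRRA and 0.58 with PPARGC1A, against -0.03 for all genes with either. For ESRRA, 18 of the 21 were above 0, and for PPARGC1A 16. The next regulator, TFAM, had a median r of 0.39, and PRKAA2 the lowest, -0.21. These values are descriptions over 12 pigs, in which the regulators and the targets were read from the same libraries, and Low MB pig 6 carried much of those of PPARGC1A and ESRRA: 9 of the 21 targets (ACADVL, FABP3, LPIN1, SOD2, CYCS, CS, IDH3A, COX4I1 and HADHA) were at their lowest of the 12 pigs there, while 6.64% of all genes were. Without it the median r with the targets was 0.43 for ESRRA, 0.40 for TFAM, 0.34 for PPARA and 0.28 for PPARGC1A, so PPARGC1A was no longer next to ESRRA in the order.

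Of the AMPK complex and its kinases, 11 genes besides PRKAA2, PRKAG1 alone had an unadjusted p under 0.05, a share close to the 8.46% of all genes. This gamma subunit was between 29.2 and 50.8 CPM in High MB, with a median of 39.8, and between 24 and 37.3 CPM in Low MB, with a median of 28.5 (log2 fold change 0.40, edgeR adjusted p = 0.563, exact permutation p = 0.0433). PRKAA1, the other catalytic subunit, was at 14.5 ± 6.02 and 14.6 ± 3.36 CPM (SD, n = 6 each, log2 fold change -0.02, exact permutation p = 0.758). The median of the 11 was -0.04, and 0.02 with upper quartile scaling, which moved the median of all genes to 0.04. It was also above 0 without Low MB pig 1 (0.01) or Low MB pig 4 (0.09).

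Of the coactivators, corepressors and partners, 17 of 18 were tested and 16 had a log2 fold change below 0 (53.1% of all genes), with a median of -0.10 against -0.02 for all genes. The corepressor NCOR1 (55.4 ± 4.79 CPM in High MB, 64.6 ± 6.02 in Low MB, log2 fold change -0.22, edgeR adjusted p = 0.569, exact permutation p = 0.0173) and the acetyltransferase EP300 (52.1 ± 5.05 and 60.2 ± 1.54 CPM, -0.21, edgeR adjusted p = 0.564, exact permutation p = 0.00433; SD, n = 6 each) were lower at an unadjusted p under 0.05 (3.13% of all genes). PPARG, the adipocyte PPAR, was the single gene above 0, at 0.65 (exact permutation p = 0.0909). The number below 0 dropped to 12 without High MB pig 2, the library with the largest TMM factor, 1.214. The median of the list was then -0.16, and it was -0.17 without High MB pig 5. The number below 0 was also 12 with upper quartile scaling, where the median of the list was -0.06 against 0.04 for all genes, about as far below it as before.

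Of 22 signals upstream of PGC-1 alpha, 20 were below 0 (53.1% of all genes tested were), with a median of -0.15 against -0.02 for all genes, and 16 were without High MB pig 2. The calcineurin subunit PPP3R1 (209 ± 29.9 CPM in High MB, 285 ± 43.0 in Low MB, log2 fold change -0.44, exact permutation p = 0.00433) and the transcription factor MEF2D (167 ± 10.4 and 201 ± 9.07 CPM, -0.27, exact permutation p = 0.00216, the smallest possible) were lower in High MB at an unadjusted p under 0.05 (3.13% of all genes), and the CREB coactivator CRTC3 (25.5 ± 4.63 and 19.4 ± 2.46 CPM, 0.39, exact permutation p = 0.0281; SD, n = 6 each) was higher (5.33% of all genes). The edgeR adjusted p was 0.563 for all 3. MEF2D was the only gene of these pathway lists whose groups did not overlap (0.426% of all genes tested), with 157 to 185 CPM in High MB and 187 to 212 CPM in Low MB. Of the 14 genes for transcription and replication of mitochondrial DNA, none had an unadjusted p under 0.05 and 13 were below 0, with a median of -0.15 and values between -0.31 and 0.00. With upper quartile scaling 10 were below 0, with a median of -0.10 against 0.04 for all genes, about the same distance. The median was -0.09 without Low MB pig 2 and -0.07 without Low MB pig 4.

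**Figure D5:**
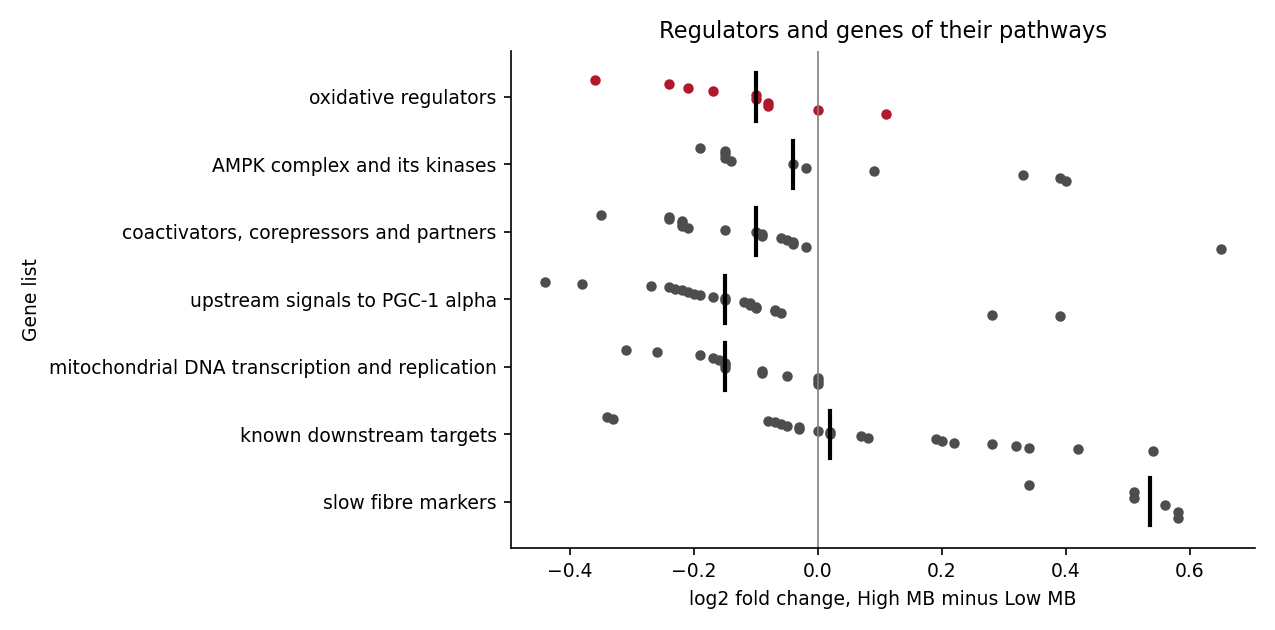
Log2 fold change (High MB minus Low MB) of the regulators (red) and of the tested genes of each pathway list and the slow-fibre markers (grey), with the median of each list as a black bar. The regulators have a median of -0.10 and the downstream targets of 0.02, while the slow-fibre markers have one of 0.54.

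Marker lists were read for the fibre and cell types the muscle could hold. Of the slow-fibre markers, 6 of 8 were tested (MYH7 had no row under its symbol) and 5 were higher in High MB at an unadjusted p under 0.05 (5.33% of all genes), with a median log2 fold change of 0.54 and a summed level of 6430 to 12600 CPM in High MB against 4840 to 8400 CPM in Low MB. As differences of mean log2 CPM, the 6 ran from 0.09 to 0.45 in the deep libraries and from 0.65 to 0.84 in the standard ones, a split that was not tested. The fast-fibre markers, 4 of 7 tested, had 1 gene lower at that p (3.13% of all genes), a median of -0.16 (-0.03 without High MB pig 2, with 2 of the 4 above 0) and summed levels of 18600 to 39100 and 31500 to 43700 CPM. Of the 6 macrophage markers, all were above 0 (median 0.93, 0.52 without High MB pig 2) and 4 had an unadjusted p under 0.05, with 42.1 to 115 CPM summed in High MB and 23.1 to 50.1 CPM in Low MB. Of the 6 fibroblast markers, all were above 0 (median 0.65) and 3 passed that p, with 573 to 999 and 292 to 751 CPM. Of the 6 adipocyte markers, 5 were above 0 (median 0.87, 1.33 without Low MB pig 5) and 2 passed, with 108 to 361 and 96.9 to 266 CPM. The 4 endothelial markers tested were all above 0 (median 0.26, 0.15 without Low MB pig 1 and 0.42 without Low MB pig 5) and none passed, with 114 to 157 and 70.1 to 175 CPM. No adjusted p of these markers passed the threshold, none was at 0 in all pigs, and their part in the values of the regulators was not tested.

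The genes whose log2 CPM was most like that of each regulator over the 12 pigs were sought among 11352 genes with a symbol and at least 10 counts per pig on average, by Pearson's r. For PPARGC1A they were QRSL1 (0.91), SLC25A3 (0.91), the mitochondrial phosphate carrier, and NNT (0.908), the mitochondrial transhydrogenase. For ESRRA they were TRMT112 (0.965), the gene whose end overlaps it, COQ10A (0.953), a coenzyme Q binding protein, and IMMT (0.948), which shapes the inner mitochondrial membrane. For PPARD the closest was the kinase gene RPS6KA3 (0.973), for TFAM TOGARAM1 (0.944), for PRKAA2 the spastin gene SPAST (0.943), and for SIRT1 ZFP36L2 (0.906) and the immediate early gene EGR1 (0.905). For PPARA it was NRDC (0.901), for NRF1 C1orf131 (0.887), for PPARGC1B RRAS (0.884) and for ESRRG TBC1D24 (0.855). Each is the highest of many values computed on 12 pigs and is given as a description.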

How the data were processed

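The authors made the deposited raw counts, by gene and by transcript, with HTSeq after trimming (Trim Galore) and HISAT2 alignment to Sscrofa11.1. No normalization was applied. The annotation release and strand setting are not given in the sources used here, and the named library kit does not mark strand. HTSeq's summary lines were left out; reads in no feature made up 46.41% to 47.67% of all lines. Whether a strand-specific setting left reads out was not tested, and it would change depth and the reads of overlapping genes. The 12 transcript tables were not used, since no table used here pairs transcripts with genes.

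The members and gene lists were chosen with earlier results of these data known. Gene counts per pig summed to 38914271 to 91318334. edgeR 4.0.16 in R 4.3.3 was run with TMM, filterByExpr, glmQLFit and glmQLFTest on all 12 pigs without covariate, and tested on simulated data. The study's tool, DESeq2 1.42.0, was an alternative. Log2 CPM used a prior count of 2. Intervals are at 95%, with the SE taken from the quasi-likelihood statistic. Each library is 1 pig. Alternatives were other size factors, DESeq2, robust dispersion, other filters, depth class, a block, removal of the 10 most counted genes, and leaving out each pig.

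Named genes were the 10 members, PRKAA1, in each pathway list every gene with an unadjusted p under 0.05 (or the 4 of lowest p), and for each member up to 3 genes of highest r, with markers given by list; of the targets, PDK4, CPT1B and CS, with PPARG and those lowest in Low MB pig 6, were chosen after their values were seen. Same-numbered pigs of the groups did not deviate together (correlations from -0.212 to 0.144), so the numbers only name a pig. Loci, lengths and upstream sequences are from RefSeq's Sscrofa11.1; motifs were searched on both strands of 45998 windows.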

Additional observations from a re-analysis of the deposited data

Results flagged for a closer look

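In the Low MB group, ESRRA in pig 6 (102 CPM) stood apart from the other 5 pigs: on the log2 scale its gap to the next pig took 0.678 of the range of the group, above Dixon's 95% critical value for 6 samples. Of the 20 groups checked (10 regulators in 2 groups) this was 1, and chance flags about 1 in 20. The same pig had the lowest PPARGC1A, 6.09 CPM, which was not past that limit.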

How the results depend on the processing

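No regulator was called under any of the 23 settings, with a smallest adjusted p of 0.478, and 214 of the 230 alternative log2 fold changes kept their sign. Those that turned were ESRRA with depth class as a covariate (-0.05) and within the standard libraries (-0.09), and PPARGC1A (0.27), NRF1 (0.05) and SIRT1 (0.02) within the deep libraries. The deep libraries set only 2 High MB pigs against 3 Low MB pigs. With the individual number as a replicate block, PPARGC1A turned to 0.09, 957 genes had an unadjusted p under 0.05 and none was called. With each pig left out, the range was -0.13 to 0.07 for ESRRA, -0.57 to 0.28 for ESRRG, -0.30 to 0.20 for PPARGC1A and -0.10 to 0.25 for PPARGC1B, and the other 6 stayed below 0: PPARA from -0.48 to -0.22, PPARD from -0.34 to -0.08, PRKAA2 from -0.22 to -0.11, SIRT1 from -0.17 to -0.03, TFAM from -0.16 to -0.03 and NRF1 from -0.13 to -0.04. An unadjusted p under 0.05 appeared for PPARA without High MB pig 1 (edgeR adjusted p = 0.496) and for PPARD without High MB pig 2 (edgeR adjusted p = 0.478). DESeq2 called 29 genes, against 0 for edgeR; the cause was not tested. At an unadjusted p under 0.05 the split of 713 higher and 419 lower genes became 914 and 201 with upper quartile scaling, and the count ran from 844 to 1454 with a pig left out. The planned tests of transcripts were not run. Low counts gave PPARA, PPARGC1B, ESRRG and NRF1 the largest counting error of the regulators, 5.57% to 6.36% in a pig. The coefficient of variation over all pigs was far above that error for ESRRG (67.6%), PPARGC1B (39.1%) and PPARA (26.8%). For NRF1 it was closer to the error, at 8.15%.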
